A study of Mus musculus with 6 samples.

Results

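The proteasome genes described here are the 45 rows, of 59485 in the deposited mouse gene table, with a symbol made of Psm, a letter from a to g and a number, leaving out Psmb8, Psmb9 and Psmb10, the immunoproteasome subunits. They hold the subunits of the constitutive proteasome, its activators, its inhibitor and its assembly chaperones. The rule takes genes by name and uses no measured value. Gene expression had been measured by RNA-seq in sciatic nerve at postnatal day 4 (P4) in 3 control libraries, whose genotype label is wild-type, and 3 mutant libraries labelled Ht-PA-Cre; Adar1fl/fl;R26R. The mutants carry floxed alleles of Adar1, which encodes an RNA-editing enzyme that acts on double-stranded RNA, together with a YFP reporter at R26R and a Cre recombinase under the human tissue plasminogen activator promoter. In the study's methods wild-type means Adar1fl/fl;R26R or Adar1fl/+;R26R without Cre, so such animals carry the reporter and a floxed allele too. The Cre of the mutants acts in neural crest cells and their descendants, such as Schwann cells, so the other cells of the nerve keep an intact gene. The comparison asks how the genes of the proteasome differ in nerves whose neural crest derivatives were meant to lack Adar1.

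The targeted gene did not fall. Adar, the symbol of Adar1 in the table, had values of 1602, 2066 and 1133 under the control label and 11768, 9311 and 9773 under the mutant label, which is a change of 2.72 (SE 0.20, adjusted p = 4.10e-05) on the log2 scale. All 3 mutant-labelled libraries were above all 3 control-labelled ones. Each gene has 1 value, in which the floxed segment cannot be told apart from the rest. Whether the segment was deleted is not shown by this total. The libraries are therefore called mutant-labelled and control-labelled, and values are listed in the order of libraries 1, 2 and 3 of each label.

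The values are reads on each gene divided by 1 size factor per library, without division by length, so levels are compared between libraries and not between genes. The libraries held 50938349 to 78250094 reads on genes. The Schwann cell markers Sox10, S100b, Erbb3, Cdh19, Gap43 and L1cam were present in every library, and of these 6 Sox10, S100b and Erbb3 were lower and Gap43 was higher in the mutant-labelled group. Their summed value was 35619 to 36289 in the control-labelled libraries and 14711 to 21094 in the mutant-labelled ones. Of 6 skeletal muscle markers 5 were higher, with sums of 6110 to 32211 against 40330 to 306302, and mutant-labelled library 3 held the highest sum. All 4 erythroid markers were lower, with sums of 44114 to 62497 against 4084 to 12684. Of 7 T and NK cell markers 3 were higher, with sums of 97.6 to 175 against 344 to 484, and Cd3d and Cd8a were at 0 in every control-labelled library. Cd4, which did not pass the test, held 69.7 to 153 and 151 to 276 of these sums. The 3 that passed, Cd8a, Nkg7 and Klrd1, were low, with mutant-labelled means of 15.2, 90.1 and 48.7. Cd3e, with means of 13.2 and 16.7, did not pass it. Of 8 macrophage markers 4 were higher and 2 lower, with overlapping sums of 12050 to 14468 and 11635 to 13732. Of 4 fibroblast markers 1, Col1a1, was lower, with a mean of 1243378 against 592563. It made up most of the sums of 1211081 to 1381384 against 478182 to 748607, lowest in mutant-labelled library 3. Dcn, Pdgfra and Lum, with log2 fold changes of 0.00, 0.16 and -0.43, did not pass the test described below. Of 4 endothelial markers 1 was higher, with overlapping sums of 10157 to 15743 and 14841 to 18998. The part of these cell mixtures in the proteasome values was not tested, and in whole nerve fewer cells of a type and less RNA per cell cannot be told apart.

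The proteasome degrades proteins that carry ubiquitin chains. Its 20S core is a barrel of stacked rings, in which the outer alpha rings gate the entrance and the inner beta rings hold the proteolytic sites. The 19S cap binds, deubiquitinates, unfolds and threads substrates through a ring of ATPases. The activator PA28, made of the products of Psme1 and Psme2, opens the same gate without ATP or ubiquitin and, like the immunoproteasome subunits, is classically induced by interferon and linked to the production of peptides for MHC class I. Core and cap subunit genes, in contrast, are expressed in nearly all cells and are known to rise together when proteasome activity is short, through the transcription factor Nrf1, the product of Nfe2l1, which acts at antioxidant response elements.

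Letters known from interferon-induced and Nrf1-regulated promoters were looked for in these genes, and the matches are printed so that they can be read beside the values. The RefSeq promoter table for GRCm38.p6, the assembly that mm10 names, held 37 of the 45 genes. The 250 bases before each start were searched on both strands for the core of the interferon-stimulated response element, GAAANNGAAA, and for the antioxidant response element, TGACNNNGC. The first was found in 3 of 37 proteasome genes (8.11%) and in 3.46% of 27025 genes in the table, and the second in 5 of 37 (13.5%) and in 11.5%. When the 50 bases after the start were added, a choice made after the first search was seen, 5 of 37 (13.5%) held the interferon letters, against 3.99%, because Psme1 and Psmg4 joined. Psme2, the partner of Psme1, held neither motif in these windows, which says only that these letters are not there. The sites follow, written in the direction of the gene with the matched letters in capitals, and matches to the opposite strand read as the reverse complement.
Psme1, interferon-stimulated response element, chr14:55578503-55578512, plus-strand gene, bases 10 to 19 after the start: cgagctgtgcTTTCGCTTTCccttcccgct
Psmg4, interferon-stimulated response element, chr13:34162979-34162988, plus-strand gene, bases 16 to 25 after the start: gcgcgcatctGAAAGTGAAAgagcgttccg
Psmb3, interferon-stimulated response element, chr11:97703271-97703280, plus-strand gene: cacagtgactTTTCACTTTCcgctttccat
Psmd4, interferon-stimulated response element, chr3:95042685-95042694, minus-strand gene: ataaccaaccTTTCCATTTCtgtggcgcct
Psmd9, interferon-stimulated response element, chr5:123228031-123228040, plus-strand gene: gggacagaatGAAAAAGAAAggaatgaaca
Psmb5, antioxidant response element, chr14:54618034-54618042, minus-strand gene: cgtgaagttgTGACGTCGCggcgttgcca
Psmb6, antioxidant response element, chr11:70525348-70525356, plus-strand gene: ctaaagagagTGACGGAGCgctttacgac
Psmc6, antioxidant response element, chr14:45329597-45329605, plus-strand gene: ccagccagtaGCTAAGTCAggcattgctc
Psmd12, antioxidant response element, chr11:107479281-107479289, plus-strand gene: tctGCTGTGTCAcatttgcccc
Psmd9, antioxidant response element, chr5:123228159-123228167, plus-strand gene: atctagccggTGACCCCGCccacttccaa

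Genes with a match fell on both sides of the test described below. Of the 5 genes with the antioxidant response element, Psmc6 and Psmd12 rose and Psmb5, Psmb6 and Psmd9 were not past the test. In the longer window 6 of 37 genes held it (16.2%, against 14.0% of all), and the gene added, Psme4, was not past the test. Of the 5 with the interferon motif in the longer window, Psme1 and Psmd4 rose and Psmb3, Psmd9 and Psmg4 were not past it. The gamma-activated site, TTCNNNGAA, was in 1 of 37 proteasome genes (2.70%, Psmg1) and in 8.13% of all genes, and the CCAAT box, CCAAT, was in 13 of 37 (35.1%) and in 37.5%. All 4 motifs were searched separately, so matches may overlap.

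Of the 45 genes, 44 had a value of at least 10 in every library and were tested. By limma's moderated test with Benjamini-Hochberg adjustment over 25802 genes, 21 of the 44 were higher in the mutant-labelled libraries at an adjusted p at or under 0.05, and 0 were lower. Over all tested genes, 19% were higher and 16.0% lower. At an unadjusted p at or under 0.05 the counts were 24 higher and 0 lower, edgeR called 19 higher and 0 lower, and DESeq2 21 and 0. With libraries brought to the same 75th percentile 12 were higher and 1 lower, and in limma without a trend in the variance 11 were higher and 0 lower. Only Psme1 and Psme2 also passed the limits used by the study, an unadjusted p at or under 0.05 with a change of at least 2-fold, which 24.2% of all tested genes passed. In 27 of the 44 every mutant-labelled library was above every control-labelled one, as in 25.9% of all tested genes, and in 2 (Psmd9 and Psmd13) every one was below, as in 23.3%.

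**Figure D1:**
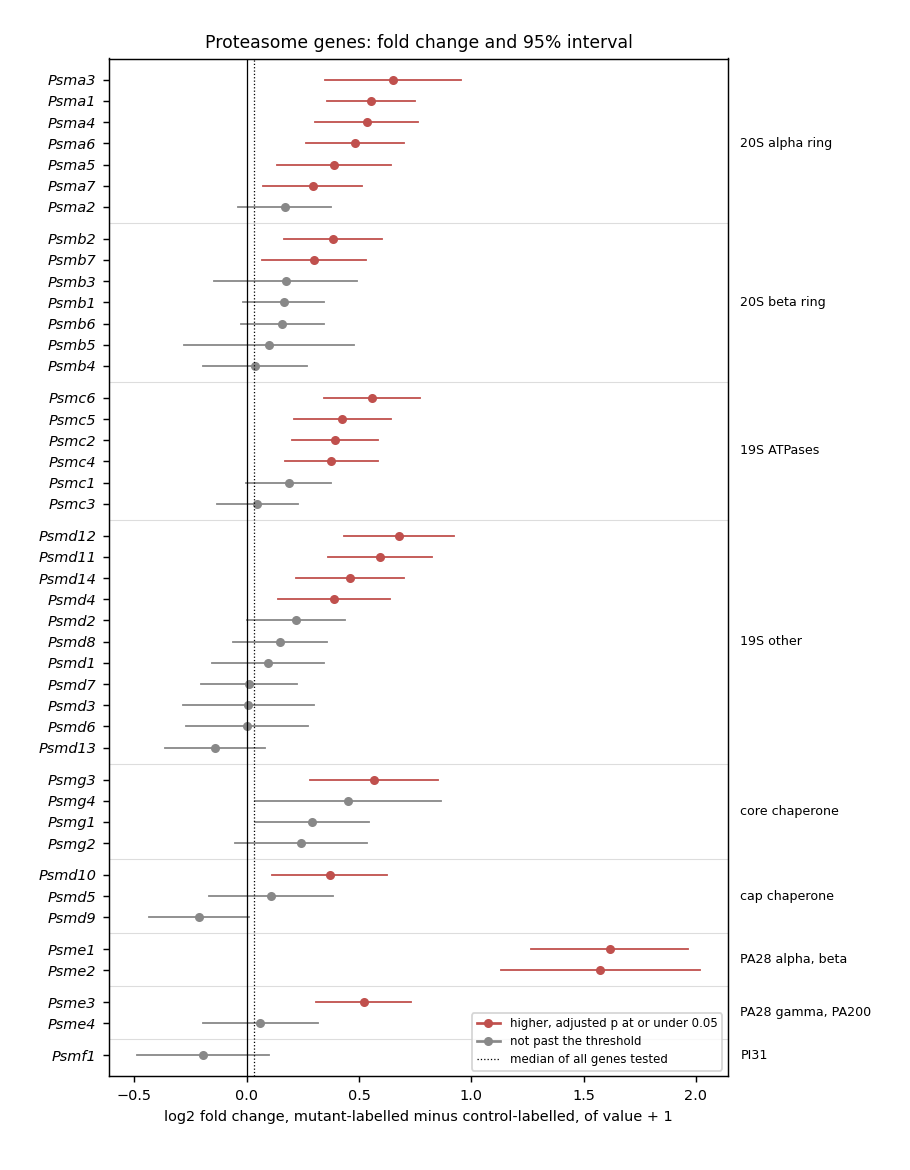
Log2 fold change of value + 1 (mutant-labelled minus control-labelled, x axis) with its 95% interval for 43 proteasome genes, grouped by role and ordered by size within each role. Red marks an adjusted p at or under 0.05, and Psme1 and Psme2, at 1.62 and 1.57, lie to the right of all other genes, which run from -0.21 to 0.68.

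The 31 subunits of core and cap moved by small amounts, mostly upward. Of these, 16 rose, 0 fell and 15 did not pass the test, and 30 of 31 had a positive estimate, against 51.6% of all tested genes. Their median log2 fold change was 0.29, a fold of 1.23, with a range of -0.14 to 0.68, and the median of all tested genes was 0.03. All 31 had a mean value of at least 1000, and among the 7828 tested genes at that level, a limit chosen after the values were seen, 26.1% were higher and 27.1% lower with a median log2 fold change of 0.00. The share of the summed value of all genes that fell on the 31 subunits was 0.343%, 0.347% and 0.361% in control-labelled libraries 1 to 3 and 0.464%, 0.443% and 0.496% in mutant-labelled libraries 1 to 3. The summed value itself was 61441652 to 64871424 under the control label and 56423733 to 57021111 under the mutant label, which by itself raises the mutant-labelled share. The groups did not overlap on this share, and mutant-labelled library 3, the one with the most muscle signal, was the highest library for 23 of the 31 subunits. Without that library 12 of 31 were called higher and the median was 0.23, with 26 of 31 estimates positive. Without mutant-labelled library 1 or control-labelled library 1 the count was also 12.

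The size of the median depended on the scaling. With libraries brought to the same total, the median of all genes moved to 0.19, that of the 31 subunits to 0.46, all 31 were positive and 22 were called higher. With libraries brought to the same 75th percentile, the median of all genes moved to -0.08, that of the subunits to 0.18, 23 of 31 were positive and 8 were called higher. A scaling moves all genes of a library alike, so the distance of the subunits from the median of all genes, 0.26, is left as it is by construction. Settings that could move this distance gave 0.19 without mutant-labelled library 3, 0.20 with no filter and 0.32 without mutant-labelled library 2. The split of calls over all genes moved as well, from 4906 higher and 4134 lower to 6315 and 3107 with the same total and to 4119 and 5016 with the same 75th percentile, where more genes were lower than higher.

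**Figure D2:**
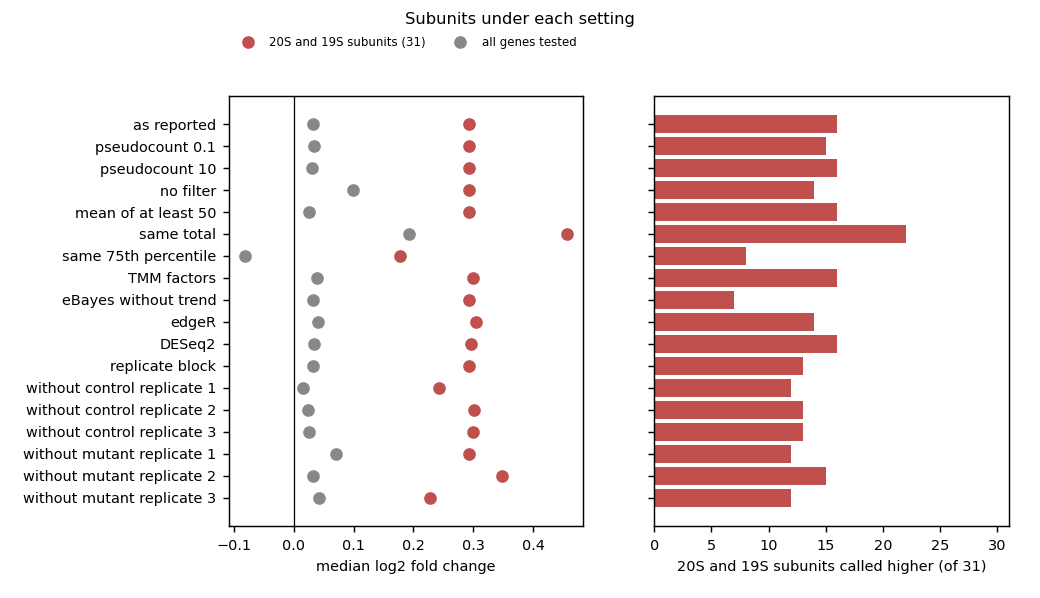
Left, median log2 fold change (x axis) of the 31 subunits of core and cap (red) and of all tested genes (grey) under each way of processing the values (y axis). Right, number of the 31 subunits called higher, from 7 without the trend in limma's variance to 22 with libraries at the same total.

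The alpha ring, which closes and opens the core, rose in nearly all of its genes. Of its 7 genes, Psma1, Psma3, Psma4, Psma5, Psma6 and Psma7 were called higher, in all 7 the groups did not overlap, and the median was 0.48, beside 19% called higher and 25.9% apart in this direction over all tested genes. Psma3 (chr12:70974623-70995877, plus strand, mm10) had the largest change, with values of 1535, 1434 and 1507 in control-labelled libraries 1 to 3 and 2104, 2177 and 2811 in mutant-labelled libraries 1 to 3. Its log2 fold change was 0.65 (SE 0.13, adjusted p = 0.00591), and mutant-labelled library 3 stood above the other mutant-labelled ones. Psma1 followed with 4326, 4184 and 4092 under the control label and 5822, 6369.9 and 6300.4 under the mutant label, a log2 fold change of 0.55 (SE 0.09, adjusted p = 0.00159). The 3 control-labelled values lay within a narrow band below every mutant-labelled one. Psma4, whose product has the tail that closes the gate, had 5303, 5288 and 5891 under the control label and 7491, 7578 and 8839 under the mutant label, a log2 fold change of 0.53 (SE 0.10, adjusted p = 0.00414). Psma6 changed by 0.48 (SE 0.10, adjusted p = 0.00526). Psma5 changed by 0.39 (SE 0.11, adjusted p = 0.0257) and kept its call under 11 of 18 settings, which are the reported processing and 17 alternatives. Psma7 changed least among the called genes, by 0.29 (SE 0.10, adjusted p = 0.0446), and was past the threshold under 8 of the 18. Psma2 was the exception: its values were 6246, 6827 and 6493 under the control label and 7043, 7046 and 7924 under the mutant label. The groups did not overlap, but the log2 fold change of 0.17 (95% interval -0.04 to 0.38) did not pass the test (adjusted p = 0.182). A second gene on the same strand, AW209491, overlaps Psma2.

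In the beta ring fewer genes passed the test, and no test of the rings against each other was made. Of its 7 genes only Psmb2 and Psmb7 were called higher, in 4 the groups did not overlap, and the median was 0.16. With 19% called higher and 25.9% apart over all tested genes, 2 of 7 calls are near the share of all genes. Psmb2, which is not proteolytic, had values of 8607, 9809 and 9477 in control-labelled libraries 1 to 3 and 11988, 11282 and 13111 in mutant-labelled libraries 1 to 3, a log2 fold change of 0.38 (SE 0.10, adjusted p = 0.0149). All mutant-labelled values were above the highest control. Psmb2 was past the threshold under 16 of 18 settings, and not with libraries at the same 75th percentile or in limma without trend. Of the proteolytic subunits 1 passed the test, and differences between them were not tested. Psmb7, which carries the trypsin-like site, had 6087, 6594 and 7166 under the control label and 7916, 7637 and 8909 under the mutant label, a log2 fold change of 0.30 (SE 0.10, adjusted p = 0.0483), and it was past the threshold under only 6 of 18 settings. Psmb6, the caspase-like subunit, had 10951, 11241 and 11737 under the control label and 12742, 12036 and 13120.1 under the mutant label, a change of 0.16 (95% interval -0.03 to 0.35, adjusted p = 0.164). Psmb5, the chymotrypsin-like subunit, had 2956, 3551 and 3511 under the control label and 2821, 3609 and 4437 under the mutant label, a change of 0.10 (95% interval -0.28 to 0.48, adjusted p = 0.682). Its mutant-labelled libraries spread from below to above the whole control range. The structural subunits Psmb1, Psmb3 and Psmb4 had log2 fold changes of 0.16, 0.17 and 0.04, and none passed the test. Psmb4, with the lowest fold change of the ring, had 7669.8, 8535 and 9341 under the control label and 8294, 8532 and 9341 under the mutant label, with a 95% interval of -0.19 to 0.27. Its groups overlapped, and its estimate, like that of Psmb5, was below 0 with libraries at the same 75th percentile.

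Summed over the 7 genes of each ring, the alpha value divided by the beta value was 0.555, 0.544 and 0.522 in control-labelled libraries 1 to 3 and 0.619, 0.627 and 0.627 in mutant-labelled libraries 1 to 3. The groups did not overlap, and the ratio does not depend on the size factors. With 3 libraries against 3, an exact permutation test cannot give a two-sided p below 0.1, and none is given.

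Among the 6 ATPases that form the motor of the cap, Psmc2, Psmc4, Psmc5 and Psmc6 were called higher and the median was 0.39, beside 19% called higher over all tested genes. Psmc6 (chr14:45329823-45349692, plus strand) had values of 8171, 8109 and 7784 in control-labelled libraries 1 to 3 and 10964, 11462 and 13106 in mutant-labelled libraries 1 to 3, a log2 fold change of 0.56 (SE 0.09, adjusted p = 0.00233). The control-labelled libraries were close together and mutant-labelled library 3 was again the highest. Psmc5 changed by 0.42 (SE 0.09, adjusted p = 0.00900), Psmc2 by 0.39 (SE 0.08, adjusted p = 0.00757) and Psmc4 by 0.38 (SE 0.09, adjusted p = 0.0129). In these 3 genes the groups did not overlap either. Each of the 3 was past the threshold under 16 of 18 settings, and not with libraries at the same 75th percentile or in limma without trend. Psmc1 had 10225, 10327 and 10994 under the control label and 11939, 11433 and 12548 under the mutant label, without overlap, and its change of 0.19 (95% interval 0.00 to 0.38) did not pass the test (adjusted p = 0.115). Psmc3 had the lowest log2 fold change of the ATPases, 0.05, with values of 13427, 14015 and 13244 under the control label and 14434, 13628 and 13990.4 under the mutant label. Its groups overlapped and its 95% interval was -0.13 to 0.23.

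Of the 11 other cap subunits 4 were called higher, beside 19% over all tested genes, with a median of 0.15 and a range of -0.14 to 0.68. Psmd12 (chr11:107479483-107504362, plus strand), a scaffold subunit of the lid, had the largest change of all 31 subunits. Its values were 5007, 3987 and 4416 in control-labelled libraries 1 to 3 and 7080.4, 6786 and 7509 in mutant-labelled libraries 1 to 3, a log2 fold change of 0.68 (SE 0.11, adjusted p = 0.00168). Psmd11 (chr11:80428615-80472306, plus strand), a lid subunit that clamps the cap to the core, had 1355, 1319 and 1322 under the control label and 1904, 2122 and 2013 under the mutant label, a log2 fold change of 0.59 (SE 0.10, adjusted p = 0.00257). Both had groups well apart. Psmd14, the deubiquitinase that strips chains from substrates, had 3548, 3914 and 4080.4 under the control label and 5095, 4941 and 5871 under the mutant label, a log2 fold change of 0.46 (SE 0.10, adjusted p = 0.0101). Its direct partner Psmd7 had 13869, 14839.6 and 15983 under the control label and 15351, 13856 and 15745 under the mutant label, with a change of 0.01 and a 95% interval of -0.20 to 0.22. The values of Psmd7 overlapped between the groups. Psmd4, a receptor for ubiquitin chains, had 8126, 9336 and 10134 under the control label and 11791, 11184 and 13112 under the mutant label, a log2 fold change of 0.39 (SE 0.11, adjusted p = 0.0244), past the threshold under 12 of 18 settings.

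The remaining lid genes Psmd3, Psmd6, Psmd8 and Psmd13 did not pass the test. Together with Psmd7 their changes ran from -0.14 to 0.15, and their 95% intervals all lay between -0.37 and 0.36. Psmd6 had 4032, 4779 and 4608 under the control label and 3981, 4399.7 and 5084 under the mutant label, a change of 0.00. Psmd3 had 7575, 9080.5 and 9334 under the control label and 10157, 8108 and 7925 under the mutant label, and its change was 0.01 with mutant-labelled library 1 above all controls and libraries 2 and 3 within their range. Psmd13 (chr7:140882393-140898644, plus strand) was the only core or cap gene with a negative estimate, with values of 5508, 5457 and 6496 in control-labelled libraries 1 to 3 and 5322, 5357 and 5109.6 in mutant-labelled libraries 1 to 3. The groups did not overlap, but the change of -0.14 (95% interval -0.37 to 0.08) did not pass the test (adjusted p = 0.300). An unnamed row on the same strand lies within Psmd13. Psmd1 and Psmd2, the large scaffolds of the base, had log2 fold changes of 0.09 (95% interval -0.16 to 0.34) and 0.22 (95% interval 0.00 to 0.44), with an adjusted p of 0.542 and 0.107.

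**Figure D3:**
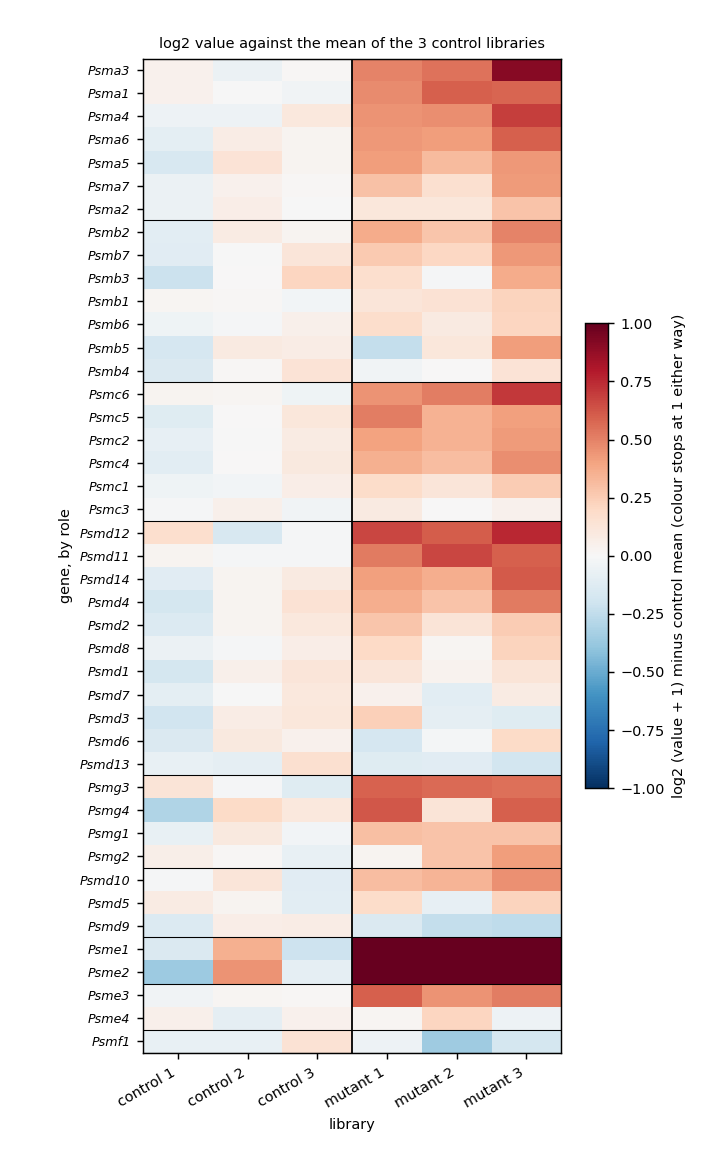
Colour map of log2 (value + 1) minus the mean of the 3 control-labelled libraries for 43 proteasome genes (rows, by role) in the 6 libraries (columns). The control columns are pale, with Psme1 and Psme2 raised in control 2, and in the mutant columns most of the alpha ring, Psmc2, Psmc4, Psmc5 and Psmc6, Psmd11, Psmd12 and Psmd14 are red while Psma2 and most of the lid are pale. Colour stops at 1, which Psme1 and Psme2 pass in every mutant-labelled library.

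Psme1 and Psme2, the alpha and beta subunits of PA28, stood apart from core and cap in size. Psme1 (GSMG0011602, chr14:55578450-55581527, plus strand) had values of 2567, 3633 and 2457 in control-labelled libraries 1 to 3 and 9033, 8030.4 and 9098 in mutant-labelled libraries 1 to 3, means of 2886 ± 649 and 8721 ± 599 (SD, n = 3 each). Its mean was 3.02 times higher, with a log2 fold change of 1.62 (SE 0.15, 95% interval 1.27 to 1.96, adjusted p = 0.000121). Psme2 (GSMG0012421, chr14:55587440-55591101, minus strand) had 1349, 2375 and 1635 in control-labelled libraries 1 to 3 and 5283, 4669.9 and 5613 in mutant-labelled libraries 1 to 3, means of 1786 ± 529.7 and 5189 ± 479 (SD, n = 3 each). Its mean was 2.90 times higher, with a log2 fold change of 1.57 (SE 0.19, 95% interval 1.13 to 2.02, adjusted p = 0.000481). In both genes every mutant-labelled library was above every control-labelled one, and control-labelled library 2 was the highest control.

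The ratio of Psme1 to Psme2 was 1.90, 1.53 and 1.50 in control-labelled libraries 1 to 3 and 1.71, 1.72 and 1.62 in mutant-labelled libraries 1 to 3, and the group ranges overlapped. Their sum was 1.86%, 2.67% and 1.75% of the summed value of core and cap in control-labelled libraries 1 to 3 and 5.42%, 5.02% and 5.26% in mutant-labelled libraries 1 to 3. This percentage was higher in every mutant-labelled library than in every control-labelled one. Both genes passed the threshold under all 18 settings, with changes of 1.50 to 1.79 for Psme1 and 1.39 to 1.80 for Psme2, the highest of each without control-labelled library 2. Psme2 has a retrogene, Psme2b, at chr11:48945354-48946190 in GENCODE M21, which has no row of that symbol in the table and lies within rows of other genes, and whether reads were divided between the copies is not given in the sources used here.

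Of the other activators Psme3 rose and Psme4 did not pass the test, and the difference between them was not tested. Psme3, whose product PA28 gamma forms a nuclear activator on its own, had 2145, 2235 and 2219 under the control label and 3327, 3007 and 3135 under the mutant label, a log2 fold change of 0.52 (SE 0.09, adjusted p = 0.00325). Its groups were clearly apart, but the change was of the size seen in core and cap. The value of Psme1 divided by that of Psme3 was 1.20, 1.63 and 1.11 in control-labelled libraries 1 to 3 and 2.71, 2.67 and 2.90 in mutant-labelled libraries 1 to 3. Psme4, which encodes the large activator PA200, had 2111, 1911 and 2101 under the control label and 2067, 2371 and 1964 under the mutant label. Its groups overlapped, and the change was 0.06 (95% interval -0.19 to 0.32, adjusted p = 0.703). Psmf1, which encodes the inhibitor PI31, had 1405, 1406 and 1635 under the control label and 1430.1, 1152 and 1311 under the mutant label, a change of -0.19 (95% interval -0.49 to 0.10, adjusted p = 0.277), and its groups overlapped.

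The 3 immunoproteasome genes, which were left out of the 45 by name, are given as a scale for the catalytic subunits that their products replace. Psmb8, which takes the place of Psmb5, had 453, 1690.4 and 331 under the control label and 16330.0, 14836 and 16037 under the mutant label, a log2 fold change of 4.63 (SE 0.50, adjusted p = 0.000261). Psmb9, in place of Psmb6, had 209.9, 1014 and 163 under the control label and 6910.2, 7127 and 7604 under the mutant label, a change of 4.46 (SE 0.58, adjusted p = 0.000618). Psmb10, in place of Psmb7, had 1244, 2263 and 1319 under the control label and 8069, 5263 and 7791 under the mutant label, a change of 2.16 (SE 0.25, adjusted p = 0.000339). The log2 ratio of Psmb8 to Psmb5 was -2.70, -1.07 and -3.40 in control-labelled libraries 1 to 3 and 2.53, 2.04 and 1.85 in mutant-labelled libraries 1 to 3. The ratio was below 0 in every control-labelled library and above 0 in every mutant-labelled one, which describes its movement and not the relative amount of the subunits, since lengths differ. Control-labelled library 2 was the highest control for Psmb8, Psmb9 and Psmb10, as it was for Psme1 and Psme2. The folds of Psmb8 and Psmb9 depended on it, and without that library their log2 fold changes were 5.34 and 5.27.

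**Figure D4:**
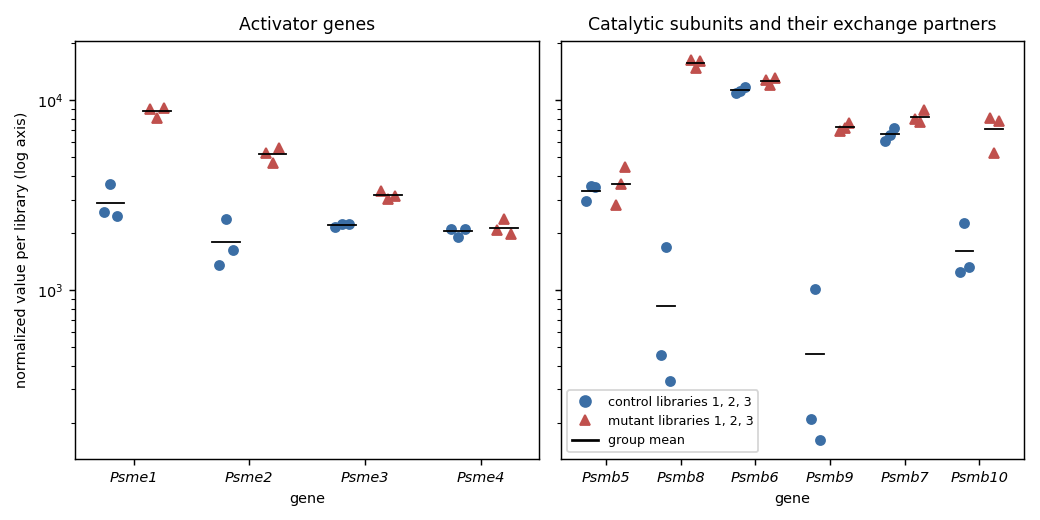
Normalized value per library (log axis) of the activator genes (left) and of the constitutive catalytic subunits beside the immunoproteasome subunits that replace them (right), with blue circles for control-labelled and red triangles for mutant-labelled libraries and lines for group means. Psme1, Psme2, Psmb8, Psmb9 and Psmb10 have all red points above all blue ones and a raised control 2, while Psme4 and Psmb5 overlap. Levels are not scaled by length and should not be compared between genes.

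The assembly chaperones were mixed. For the core, the products of Psmg1 and Psmg2 pair with each other and those of Psmg3 and Psmg4 form a second pair. Psmg3 was called higher, with 799.5, 724 and 670.4 in control-labelled libraries 1 to 3 and 1097, 1079 and 1067 in mutant-labelled libraries 1 to 3 and a log2 fold change of 0.57 (SE 0.12, adjusted p = 0.00855). Its partner Psmg4 had 1103, 1549.6 and 1459.8 under the control label and 2092, 1485 and 2055 under the mutant label, where mutant-labelled library 2 lay within the control range. The change of 0.45 (95% interval 0.04 to 0.86) did not pass the test (adjusted p = 0.0858). Psmg1 had 966, 1084 and 999 under the control label and 1249.7, 1237 and 1235 under the mutant label, without overlap, and a log2 fold change of 0.29 (95% interval 0.03 to 0.54, adjusted p = 0.0760). Psmg2, with the lowest log2 fold change of the 4, had 1442, 1392 and 1314 under the control label and 1408, 1682 and 1842 under the mutant label and a log2 fold change of 0.24 (adjusted p = 0.180).

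For the cap, Psmd10, which encodes gankyrin, had 1397, 1527 and 1303 under the control label and 1743, 1776 and 1933 under the mutant label and a log2 fold change of 0.37 (SE 0.11, adjusted p = 0.0332), past the threshold under 9 of 18 settings. Psmd5 had 2074, 1991 and 1817 under the control label and 2227, 1849 and 2282 under the mutant label, a change of 0.11 with overlapping groups. Psmd9 had 4042, 4658 and 4669.7 under the control label and 4019, 3766 and 3727 under the mutant label, all mutant-labelled values below all controls. Its change of -0.21 (95% interval -0.44 to 0.01) did not pass the test (adjusted p = 0.124), and with libraries at the same 75th percentile it was called lower, at -0.33 (adjusted p = 0.0429). Psmd9 is also the gene with a match to both promoter motifs printed above.

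The tissue-restricted subunits were low. Psma8, the alpha subunit of the testis proteasome, had 60, 26.5 and 53.2 under the control label and 36.4, 57.9 and 19.8 under the mutant label, and its change of -0.33 (95% interval -1.60 to 0.94) leaves a wide range. Psmb11, the beta subunit of the thymus proteasome, had 0, 0 and 2.53 under the control label and 5.82, 1.93 and 15.8 under the mutant label and was not tested. Both libraries at 0 were controls, and the highest value corresponds to 16 reads.

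Beyond the subunits, a list of 29 genes around the proteasome was examined, of which 28 had a row and Paaf1 did not. Of the 28, 9 rose, 4 fell and 15 did not pass the test, beside 19% higher and 16.0% lower over all tested genes. The median log2 fold change was 0.14, and 5 rose instead of 9 with libraries at the same 75th percentile or in limma without trend. The list was read by role, beginning with genes for the transcription of subunits. Nfe2l1, which encodes Nrf1, had 12172, 12132 and 11891 in control-labelled libraries 1 to 3 and 25091, 23039 and 24619 in mutant-labelled libraries 1 to 3, a log2 fold change of 1.01 (SE 0.08, adjusted p = 4.81e-05). Each group was tight and the mean was 2.01 times higher, the only gene of the list past the 2-fold limits. Ngly1, the deglycosylase that processes Nrf1, had 654, 691 and 678 under the control label and 1129.6, 1056 and 1270.0 under the mutant label, a change of 0.77 (SE 0.13, adjusted p = 0.00215). Ddi2, the protease that cleaves Nrf1, changed by 0.51 (SE 0.15, adjusted p = 0.0272). In both genes the groups did not overlap. The related factor Nfe2l2 had 11272, 8735 and 8253 under the control label and 10984, 11820.4 and 11736 under the mutant label, with overlap, a change of 0.30 and an adjusted p of 0.0920.

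Among partners of the particle, Akirin2, which takes proteasomes into the nucleus, changed by 0.71 (SE 0.09, adjusted p = 0.000637), and the cap deubiquitinases Usp14 and Uchl5 by 0.66 (SE 0.11, adjusted p = 0.00218) and 0.43 (SE 0.13, adjusted p = 0.0292). Txnl1, a thioredoxin-like protein of the cap, changed by 0.51 (SE 0.09, adjusted p = 0.00346). Ecpas, listed as AI314180 and encoding a protein that holds core and cap together, changed by 0.39 (SE 0.10, adjusted p = 0.0159). The core assembly factor Pomp, with 5221, 5457 and 5521 under the control label and 5186, 5019 and 5608 under the mutant label, had a log2 fold change of -0.04 (95% interval -0.24 to 0.16) that did not pass the test. The values for the cap components Adrm1 and Sem1, at 0.08 and 0.07, did not pass it either. Zfand5, which stimulates the proteasome, fell, with 9787, 9101 and 9778 in control-labelled libraries 1 to 3 and 6176, 5959.9 and 6009 in mutant-labelled libraries 1 to 3, a change of -0.66 (SE 0.08, adjusted p = 0.000478). Fbxo7, which binds the inhibitor PI31, also fell, with 4291, 5037 and 5098 under the control label and 3145, 2760.4 and 3234 under the mutant label, a change of -0.66 (SE 0.11, adjusted p = 0.00236). In both, every mutant-labelled library was below every control-labelled one.

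In the ubiquitin and delivery group of 13 genes, 1 rose and 2 fell, which is no more than the 19% and 16.0% of all tested genes. Rad23b, a shuttle that brings ubiquitinated proteins to the cap, rose by 0.36 (SE 0.09, adjusted p = 0.0140). Vcp, the segregase that extracts proteins for degradation, changed by -0.48 (SE 0.08, adjusted p = 0.00234) and Ubqln2, another shuttle, by -0.48 (SE 0.11, adjusted p = 0.0111). The ubiquitin genes Ubb and Rps27a had log2 fold changes of -0.05 and 0.26, and neither passed the test. In Rad23b every mutant-labelled library was above every control-labelled one, and in Vcp and Ubqln2 every one was below.

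**Figure D5:**
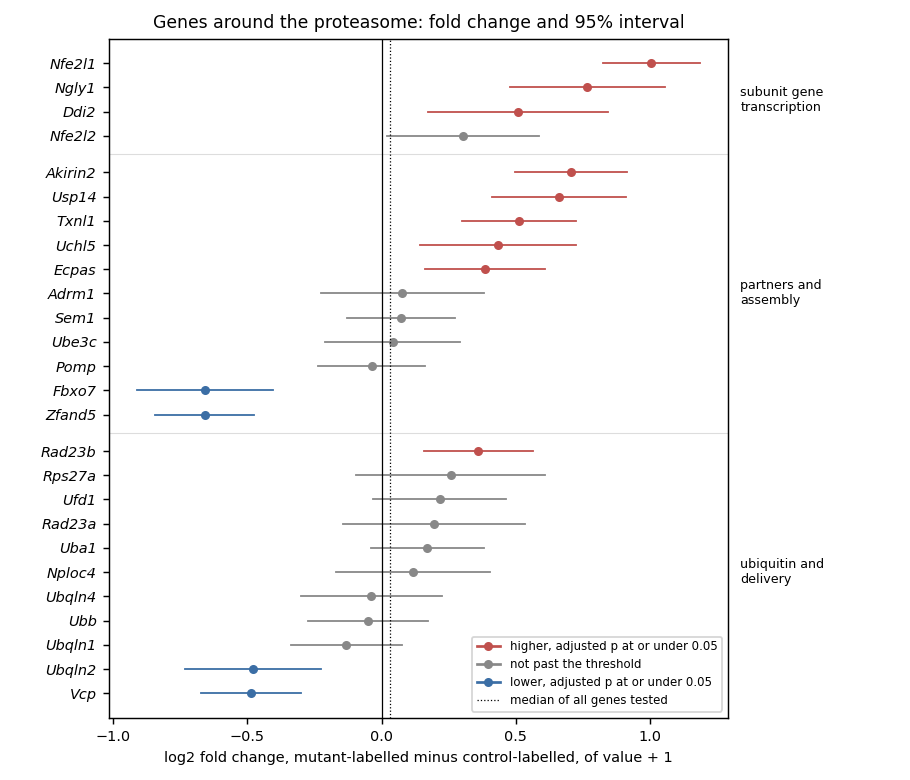
Log2 fold change of value + 1 (x axis) with its 95% interval for 26 of the listed genes around the proteasome, by group. Red genes were higher and blue genes lower at an adjusted p at or under 0.05, with Nfe2l1 at 1.01 the highest and Zfand5 at -0.66 the lowest.

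Of the 21 genes called higher, 11 passed the threshold under all 18 settings: Psma1, Psma3, Psma4, Psma6, Psmc6, Psmd11, Psmd12, Psme1, Psme2, Psme3 and Psmg3. No member gave a call in the opposite direction to the one reported. Within groups the subunits were repeatable, with a median coefficient of variation over the 31 core and cap genes of 6.80% in the control-labelled libraries and 6.65% in the mutant-labelled ones. Control-labelled library 1 was the lowest library for 19 of the 31. Many of the genes overlap rows on the opposite strand, such as Psme1 with Emc9 and Psmb7 with Nek6, and whether the counting used strand is not given in the sources used here.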

How the data were processed

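RNA-seq of sciatic nerve had been made from poly-A RNA as oriented, paired-end libraries, 3 per genotype. Per the labels and the study's methods, the authors mapped reads with STAR 2.4.0 on mm10, counted those on constitutive regions of FAST DB genes and normalized the counts with DESeq2, by 1 factor per library. The deposited signal values are these normalized reads, with no division by length. All values were whole multiples of 1 step per library, within a tolerance of 0.01, from which the reads were recovered for edgeR and DESeq2.

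Genes with a mean of at least 10 in at least 1 genotype were tested on log2(value + 1) with limma 3.58.1 (R 4.3.3, eBayes with trend, two-sided, 6 libraries, no covariates) and Benjamini-Hochberg adjustment over all 25802 tested genes. The threshold was an adjusted p of 0.05. A fold change on this scale understates the change of low genes. Scripts were checked on made-up counts. Alternatives were pseudocounts of 0.1 and 10, no filter, a mean of at least 50, 3 other scalings, limma without trend, edgeR 4.0.16, DESeq2 1.42.0, a replicate block and leaving out each library. The study's text gives 3 animals per genotype, 1 library each, and p-values measure the spread between these libraries.

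The members and gene lists were chosen with earlier results of these data known. Values in every library are given for Psme1, Psme2 and the highest and lowest member of each role, with further members added after their values were seen. Promoters came from RefSeq (GRCm38.p6), overlaps from the table and copies from GENCODE M21. Sequence searches carry no test. Some genes of the marker and pathway lists are not reported here.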

Additional observations from a re-analysis of the deposited data

How the results depend on the processing

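Over 17 alternatives, the 44 tested genes gave no call in the direction opposite to the reported one. With libraries at the same 75th percentile, 12 proteasome genes were called higher and 1 lower, 8 of 31 core and cap subunits and 5 pathway genes were higher, and the core and cap median was 0.18. With libraries at the same total, that median was 0.46. In limma without trend, 11 proteasome genes, 7 core and cap subunits and 5 pathway genes were higher, and the cause of these losses was not tested. Leaving out 1 library gave 16 to 20 proteasome genes, 12 to 15 core and cap subunits and a core and cap median of 0.23 to 0.35. The deviations of same-numbered libraries from their group means correlated at -0.06, -0.06 and 0.01. With 3 libraries a group this cannot settle whether the libraries were paired. With a replicate block 17 proteasome genes, 13 core and cap subunits and 8 pathway genes were higher, and Psme1 and Psme2 kept their calls. Such a block leaves fold changes as they are by construction, so the median of 0.29 and the changes of 1.62 and 1.57 could not move. In the promoter window with the 50 bases after the start, 5 genes had the interferon motif and 2 the gamma-activated site. With 3 libraries a group, changes such as 0.29 are near the smallest that pass, so genes not past the test are not shown to be unchanged.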
